A study of Mus musculus with 48 samples.

Results

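The regions described here are 371 stretches of the mouse genome at which macrophages and monocytes of sham-operated P10 hearts carried more H3K27ac than those of sham-operated P1 hearts, followed into the infarcted hearts of both ages. They were chosen by measured values. Autosomal windows of 500 bp with a CPM, averaged over the 24 groups, of at least 4 times the mean of covered windows were joined where their starts lay within 1000 bp, which gave 26232 regions. A region was kept where the 21 sham libraries held 60 or more read pairs in it together and where its summed CPM in P10 sham was at least 1.8 times that in P1 sham. CPM counts read pairs per 1000000, of all pairs for the windows and of the pairs in regions from there on. Of the 26232 regions, 12887 had enough sham pairs and 371 of these met the ratio.

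The mice were C57BL/6 of both sexes, with no transgene. They were operated at P1 or P10, the postnatal day of surgery. The left anterior descending coronary artery was tied, which makes a myocardial infarction (MI), or the operation was a sham, and hearts were taken 3 or 7 days later. Each heart was cut into the infarct itself (infarct zone, IZ), the tissue around it (border zone, BZ) and the tissue far from it (remote zone, RZ), with the same parts in sham hearts, and each zone was pooled over several hearts. CD45+ F4/80+ 7AAD- cells were sorted and H3K27ac was mapped by CoBATCH, in which an antibody brings a transposase to the marked chromatin, with the deacetylase inhibitor sodium butyrate in the buffers. Each zone had 2 libraries per age, day and surgery, except at P1 day 3, where it had 1. P10 hearts were also older than P1 hearts when taken. The gate takes every F4/80+ leukocyte, so a library mixes resident macrophages, macrophages from recruited monocytes and monocytes. In such bulk libraries fewer cells of a type and less mark per cell cannot be told apart.

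H3K27ac, acetylation of lysine 27 on histone H3, sits on active enhancers and promoters and is written by the acetyltransferases p300 and CBP. The heart holds resident macrophages that settle before and around birth and renew themselves locally. They carry markers such as Lyve1, C1qa, Fcrls, the scavenger receptor Cd163, the lectins Mgl2 and Clec10a and the carbonyl reductase Cbr2. They depend on transcription factors of the MAF family. After an infarct in the adult heart, many resident cells in the injured zone are lost and blood monocytes enter. Neonatal hearts are reported to expand their resident macrophages. The neonatal mouse heart regrows muscle after such an injury and loses this ability within its first days.

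Of the 6 members chosen for printing, by a large sham ratio or a small p between the infarcted hearts, 4 did not overlap an untranslated region and are shown. The Kdelc2 and Serpinf1 members were called between infarcted P10 and P1 hearts at day 7, and the Fancc, Kdelc2 and Itsn1 members over both days. Each is the 300 bases of GRCm38 (mm10), plus strand, around the densest point of its pairs over all 42 libraries, from the RefSeq copy of that assembly. Capitals mark matches, on either strand, to GGAAGT (PU.1), TGANTCA (AP-1), TGCTGA (MAF) or TTGCNNA (C/EBP). The Fancc member, chr13:63256871-63257170, lies in an intron of 2010111I01Rik and holds 1 MAF match. The Kdelc2 member, chr9:53384236-53384535, lies at the gene's start and holds no match. The Serpinf1 member, chr11:75415107-75415406, lies in an intron of Serpinf1 and holds an AP-1, a C/EBP, a PU.1 and 2 MAF matches, of which 1 MAF match overlaps the AP-1 match. The Itsn1 member, chr16:91740566-91740865, lies in introns of Itsn1 and Atp5o and holds no match.
Fancc member: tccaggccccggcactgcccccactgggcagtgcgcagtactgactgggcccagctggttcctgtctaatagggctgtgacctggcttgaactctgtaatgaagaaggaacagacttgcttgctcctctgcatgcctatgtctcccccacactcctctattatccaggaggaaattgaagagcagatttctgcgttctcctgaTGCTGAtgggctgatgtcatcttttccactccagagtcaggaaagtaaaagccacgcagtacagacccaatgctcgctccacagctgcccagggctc
Kdelc2 member: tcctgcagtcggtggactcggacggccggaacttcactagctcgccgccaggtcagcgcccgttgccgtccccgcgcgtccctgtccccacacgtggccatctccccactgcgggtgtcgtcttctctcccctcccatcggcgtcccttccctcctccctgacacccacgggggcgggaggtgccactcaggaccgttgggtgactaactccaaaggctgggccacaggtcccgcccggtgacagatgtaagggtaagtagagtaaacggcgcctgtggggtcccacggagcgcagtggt
Serpinf1 member: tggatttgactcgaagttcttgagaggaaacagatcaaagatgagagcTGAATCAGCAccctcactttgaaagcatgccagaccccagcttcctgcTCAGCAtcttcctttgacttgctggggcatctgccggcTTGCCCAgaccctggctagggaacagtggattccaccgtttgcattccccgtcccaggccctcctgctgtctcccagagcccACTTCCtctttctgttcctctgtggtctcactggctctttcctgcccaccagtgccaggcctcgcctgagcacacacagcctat
Itsn1 member: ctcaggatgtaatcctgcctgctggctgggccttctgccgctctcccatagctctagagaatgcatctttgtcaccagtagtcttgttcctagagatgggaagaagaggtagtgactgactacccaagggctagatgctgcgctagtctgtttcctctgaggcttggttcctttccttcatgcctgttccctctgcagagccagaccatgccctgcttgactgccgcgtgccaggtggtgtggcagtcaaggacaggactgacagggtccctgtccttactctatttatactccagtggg

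Members lay mostly away from gene starts. Of the 371, 99 (26.7%) lay at a promoter, within 1 kb of a gene start, against 53.1% of the 12887 regions with enough pairs. Their densest point fell in an intron in 181 (48.8%), between genes in 130 (35%) and in an exon in 60 (16.2%), and its median distance to the nearest protein-coding start was 23119 bp, against 2206 bp for the 12887. Members were also smaller and weaker, with a median length of 2500 bp (1000 to 14000) and a median of 100 sham pairs (60 to 780), against 3500 bp and 169 pairs. They spread over 19 chromosomes and 320 nearest genes. Swap70, which codes for a Rac-binding signalling protein, was nearest to 5 members. Adam19, Nrp1, Mfhas1, Myo5a, Armc2, Prelid3a, 1700017B05Rik and 2010111I01Rik were nearest to 3 each.

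The ratio that chose them had a median of 2.05 and ran from 1.8 to 8.20, with 95 members under 1.9, 221 at 2 or more and 33 at 3 or more. The members just inside the limit lay near 2010111I01Rik, Arnt, Bbs10 and Gatm, and the regions just outside near C9, Maf (126543 bp from its start), Nsd1 and Mon2, all with a ratio of 1.8 after rounding. Median CPM of the members was 29.2 in P10 sham and 13.7 in P1 sham. These values are the choice itself.

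In 300 bases around the densest point of the pairs of all 42 libraries, members were poorer in GC than all 12887 regions (median 51.7% against 57.7%, and outside promoters 49.5% against 51.3%). The MAF letters TGCTGA stood in 28.8% of members and 20.4% of all regions. Outside promoters these shares were 32.4% and 26.5%. The KLF letters CCCGCC stood in 23.2% of members and 42.7% of all regions, and outside promoters in 7.35% and 16.3%. PU.1 letters were in 31.3% against 32.6%, AP-1 in 11.1% against 8.99%, C/EBP in 38.8% against 33.2%, RUNX (TGTGGT) in 20.2% against 17.6% and NR4A (AGGTCA) in 17.0% against 16.5%. IRF (GAAANNG) letters were in 56.9% against 49.4%, MEF2 (CTANNNA) in 73.0% against 65.6%, E-box (CACGTG) in 7.01% against 8.22% and NF-kB (GGGANTT) in 12.4% against 14.7%. Outside promoters the direction turned for AP-1 (12.1% against 14.3%), RUNX (22.4% against 24.3%) and NR4A (20.6% against 21.1%). There C/EBP letters were in 40.1% against 39.3%, and the other motifs kept their direction. These are letter matches on both strands and were not tested.

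The libraries held 15150 to 513486 pairs in regions (median 185086), and 4 held under 50000. The P1 MI day 7 arm was the shallowest, with 624679 pairs over its 6 libraries against 1447310 in P10 MI day 7. Regions within 5 kb of Adgre1 (which codes for F4/80), Cd68, Csf1r, Ptprc and Tyrobp held pairs in all 42 libraries. MI and sham pools of one age, day and number shared their flow cells, as read names show, except that P1 MI day 7 replicate 1 was run on 8 flow cells and its sham on 6 of these. P10 and P1 pools shared no flow cell at day 3 and at most 1 per pair of pools at day 7, so age and flow cell cannot be told apart within either day. All 18 libraries numbered 2, and no other, held repeated lines, which were dropped.

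Summed over the 371 members, every P10 MI library of day 7 held more H3K27ac than every P1 MI library of day 7, while at day 3 the MI arms overlapped. At day 7, P10 MI libraries had 1.29% ± 0.181 (SD, n = 6) of their pairs in regions within members, with values from 1.03% to 1.54%, and P1 MI libraries had 0.713% ± 0.063 (n = 6), from 0.612% to 0.797%. P10 sham libraries of day 7 ran from 1.31% to 1.57%, above 3 of the 6 P10 MI libraries. At day 3, P10 MI libraries had 0.964% ± 0.323 (n = 6), from 0.581% to 1.26%, and P1 MI libraries 0.870% ± 0.190 (n = 3), from 0.668% to 1.05%. The 3 P1 MI libraries of day 3 are the zones of 1 replicate number, taken as 1 pool of hearts, so their SD is a spread between zones. The sham arms, which chose the members, had 1.46% ± 0.086 (P10 day 7, n = 6), 1.39% ± 0.264 (P10 day 3, n = 6), 0.587% ± 0.079 (P1 day 7, n = 6) and 0.758% ± 0.045 (P1 day 3, n = 3). On pooled pairs P10 MI was 1.86 times P1 MI at day 7 and 1.17 times at day 3. For regions chosen on the day 3 sham hearts alone, the day 7 ratio was also 1.17. That choice kept the ratio limit of the members but lowered the minimum of sham pairs to the share of that day. Its regions can thus rest on fewer sham pairs than the members.

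**Figure D1:**
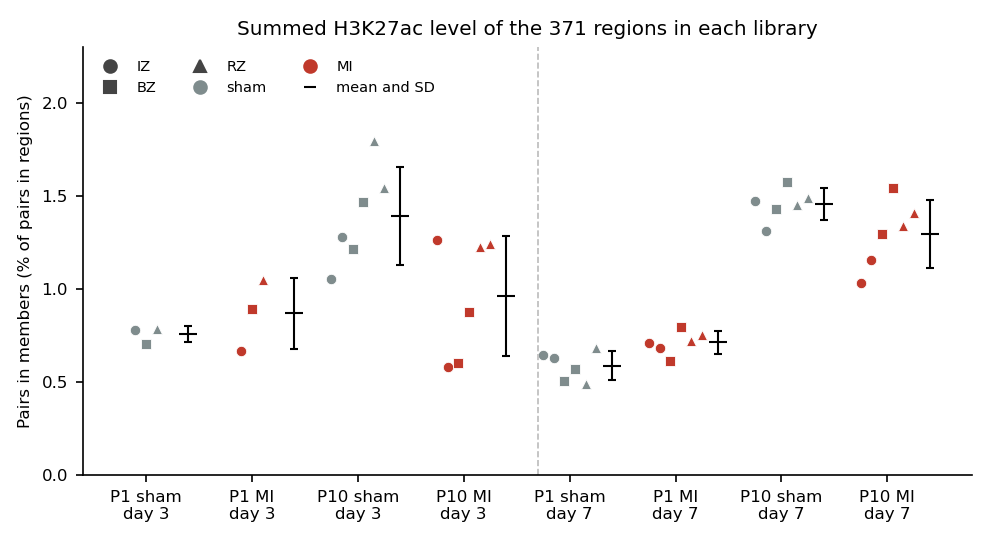
Share of each library's pairs in regions that fell in the 371 members, in percent, for the 8 arms, with circles for IZ, squares for BZ and triangles for RZ, and bars for the mean and SD over libraries. At day 7 every P10 MI library (1.03% to 1.54%) lies above every P1 MI library (0.612% to 0.797%), and at day 3 the P10 MI libraries spread from 0.581% to 1.26%.

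The day 3 spread in P10 MI lay within the injured zones and between replicates. In the IZ the libraries stood at 1.26% (replicate 2) and 0.581% (replicate 3), in the BZ at 0.600% and 0.875%, and in the RZ at 1.22% and 1.24%. The remote libraries lay close together, while the infarct libraries lay farther apart than any other pair of one zone. At day 7 the IZ libraries (1.03% and 1.15%) lay below those of the BZ (1.29% and 1.54%) and RZ (1.34% and 1.41%), which overlapped.

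Member by member, each infarct arm was placed between the 2 sham ages of the same day. In P10 MI day 7, 318 of 371 members (85.7%) had a pooled CPM closer to P10 sham than to P1 sham. In P10 MI day 3, 157 (42.3%) did. In P1 MI the numbers were 96 (25.9%) at day 3 and 104 (28.0%) at day 7. Among all 12887 regions the same shares were 67.8%, 54.2%, 40.7% and 40.9%. The median CPM of the members was 26.3 in P10 MI day 7, 20.2 in P10 MI day 3, 14.4 in P1 MI day 7 and 19.4 in P1 MI day 3, beside 29.1, 28.6, 11.9 and 15.9 in the sham arms of the same ages and days. The sham values chose the members and so lie farther apart than those of new sham libraries would, which makes these shares a description.

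The ratio and the minimum of sham pairs used no infarct library, so P10 MI can be tested against P1 MI, although the windows behind the regions were averaged over MI and sham groups. Choice and test were not separate in flow cells, which MI and sham pools of one age, day and number shared in whole or in part. Age and flow cell cannot be told apart in this test either. Differences were fitted with limma voom over all regions whose mean count over libraries was 3 pairs or more, which 309 of 371 members and 12256 regions in all met, and p-values were adjusted over the 12256 by Benjamini-Hochberg. At day 7, 33 of the 309 members (10.7%) were higher in P10 MI and 0 lower, against 1.45% higher and 2.78% lower of all regions. The median log2 difference was 0.64 in members and -0.03 over all regions. The count of 33 was 10 without P1 MI day 7 RZ replicate 1, 13 without P1 MI day 7 IZ replicate 1, 19 without P1 MI day 7 BZ replicate 2 or P10 MI day 7 IZ replicate 2 and 21 without P10 MI day 7 RZ replicate 1. Within shared flow cells it was 12, with a member median of 0.35. That setting compares P10 MI day 7 replicate 1 with P1 MI day 3, which is 1 pool of hearts against 1 and day 7 against day 3. Its spread comes from the libraries of those pools alone, with zone as a term. Shares of all regions called in this setting and in the fits without 1 library are not given here. By pooled CPM, 311 of 371 members (83.8%) were higher in P10 MI at day 7 (50.8% of all regions), with a median fold of 1.86, and 209 (56.3%) were at least 1.8 times higher, against 10.5% of all regions. In 26 of 371 members (7.01%, against 1.32% of all regions) the P10 MI and P1 MI libraries did not overlap. The regions chosen by the same rule in the other direction mirrored this: of 430, 371 were tested at day 7 and 100 were lower in P10 MI, 0 higher, with a median of -1.02.

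At day 3 the same comparison called 0 members and 0 of all regions (0.0%). At an unadjusted p under 0.05, 12 members were higher and 4 lower, against 2.66% and 5.14% of all regions. The median log2 difference of members was 0.10, against -0.06 over all regions. Its sign was not stable, with -0.09 without P10 MI day 3 BZ replicate 3, 0.25 without P10 MI day 3 IZ replicate 3 and -0.01 with the replicate block. By pooled CPM, 233 of 371 members (62.8%) were higher in P10 MI (48.3% of all regions), with a median fold of 1.20, and 70 (18.9%) were at least 1.8 times higher (4.63%). In 8 members (2.16%, against 1.73%) the libraries did not overlap. This day had 3 P1 MI libraries, 1 per zone, all from 1 pool of hearts, and the tests over both days and between days rest on the same pool.

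**Figure D2:**
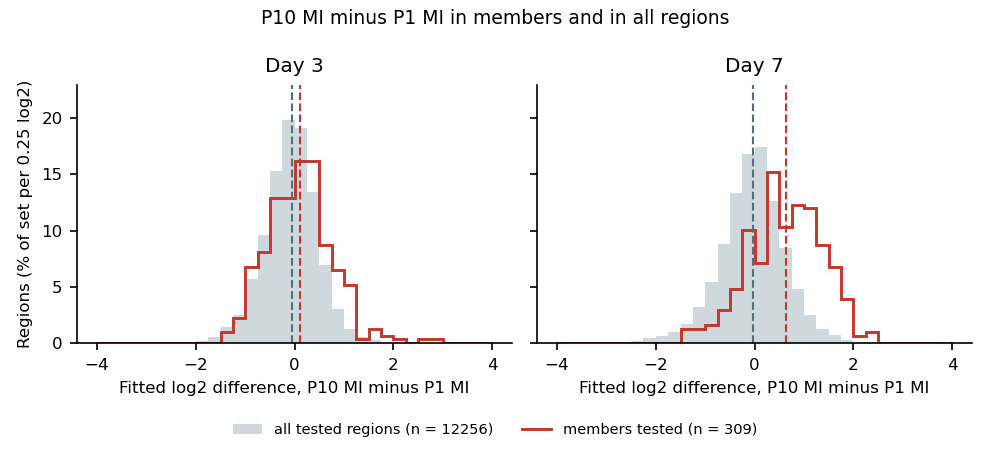
Distribution of the fitted log2 difference, P10 MI minus P1 MI, in bins of 0.25, for the 309 tested members (red line) and all 12256 tested regions (grey), each as percent of its set, with dashed lines at the medians. At day 3 the medians are 0.10 and -0.06, and at day 7 the members are shifted, with medians of 0.64 and -0.03.

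Whether the age difference itself grew from day 3 to day 7 was tested as an interaction. Of the 309 members 3 were higher and 0 lower, against 0.188% higher and 0.579% lower of all regions, with a median of 0.53 in members and 0.04 over all regions. The 3 were the members at Plekhg5, A4galt and Slco2b1, described next. Between day 3 and day 7 the flow cells also changed in whole or in part, except for P10 replicate 2, and their part in this difference was not tested.

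The 33 members called at day 7 differed by 1.02 to 2.41 on the log2 scale, with a median of 1.78. All 33 had a positive difference in each of the 3 zones, which the call favours since it averages these zones. At day 3, 19 had a positive difference, where 173 of the 309 tested members (56.0%) and 44.8% of all regions did. Of the 33, 7 lay at promoters (26.7% of the 371 members). In 13 the libraries did not overlap (7.01% of the 371 members), which the call also favours. Depth of the 33 in P1 MI day 7 was low, with a median of 11 pairs over 6 libraries (4 to 60), against 94 in P10 MI day 7. At 32 of the 33 the fitted P10 MI value lay below P10 sham at day 3, and at 16 it did so at day 7. Among all tested members these shares were 88.7% and 64.7%, and among all regions 54.0% and 50.3%. P10 sham chose the members, so values below it are favoured by the choice.

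The membrane transporter gene Slco2b1, which codes for an organic anion carrier, held a member in an intron (chr7:99670501-99681500, 36089 bp from the nearest start). P1 MI day 7 libraries ran from 0 to 59.5 CPM (median 33.6) and P10 MI day 7 libraries from 92.6 to 187 (median 149), with no library of one arm in the range of the other. The log2 difference was 1.98 (SE 0.43, limma adjusted p = 0.00183). At day 3 the 3 P1 MI libraries had 55.1, 75 and 108 CPM and the 6 P10 MI libraries 17.3 to 193 with a median of 77.1, a difference of -0.33. The change of the age difference between days was 2.31 (adjusted p = 0.0329). The day 7 call held in each of 42 fits without 1 library and in 10 other settings. Against P1 MI day 3 libraries from the same flow cells, the difference was 0.88 (limma adjusted p = 0.0374).

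The named member with the highest CPM in P10 MI day 7 spanned the starts of Dcxr and of its neighbour Cbr2 (chr11:120725001-120734500). Dcxr codes for a reductase of sugars and dicarbonyls and Cbr2 for a carbonyl reductase found in resident macrophages. P1 MI day 7 libraries ran from 29.5 to 86.2 CPM (median 79.2) and P10 MI day 7 libraries from 132 to 255 (median 223), with no overlap. The log2 difference was 1.48 (SE 0.34, limma adjusted p = 0.00398), and the call held without any 1 library and in 10 other settings. Against P1 MI day 3 libraries from the same flow cells it was 1.18. At day 3 the P1 MI libraries had 55.1, 102 and 136 CPM and the P10 MI libraries 17.3 to 148 (median 76.7), which overlapped. The lowest P10 MI day 3 values were 17.3 in IZ replicate 3 and 37.9 in BZ replicate 2, and the highest 143 and 148 in the RZ.

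Plekhg5, which codes for a guanine exchange factor, held a member over one of its starts (chr4:152072001-152080500). P1 MI day 7 libraries ran from 0 to 44.6 CPM (median 13.2) and P10 MI day 7 libraries from 61.8 to 133 (median 105), apart from each other. The difference was 2.05 (SE 0.51, limma adjusted p = 0.00856). At day 3 it was -0.84, with 51.7, 70.3 and 78.2 CPM in P1 MI and 0 to 109 in P10 MI (median 60.6). The change between days was 2.88 (adjusted p = 0.0270).

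The member nearest A4galt, whose product makes the glycolipid Gb3, lay between genes (chr15:83220501-83225000, 28023 bp from the start). P1 MI day 7 libraries ran from 0 to 29.5 CPM (median 8.08), with 3 of 6 at 0, and P10 MI day 7 libraries from 59.0 to 113 (median 91.7). The difference was 2.39 (SE 0.50, limma adjusted p = 0.00105), again without overlap. At day 3 P1 MI had 24.1, 46.9 and 60.1 CPM and P10 MI 0 to 62.5 (median 35.1), a difference of -0.51. The change between days was 2.90 (adjusted p = 0.0273). The day 7 calls of A4galt and Plekhg5 held without any 1 library. Within shared flow cells, P10 MI day 7 replicate 1 could be set against the P1 MI libraries of day 3 alone. There the differences were 0.63 for A4galt (limma adjusted p = 0.401), 0.73 for Plekhg5 (0.158) and 1.06 for Kdelc2 (0.279), none of them called.

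Kdelc2, a gene for an O-glucosyltransferase of the endoplasmic reticulum, held a member at its start (chr9:53384001-53388000), whose sequence is printed above. In P1 MI day 7, 4 of 6 libraries had no pair and the highest had 19.8 CPM, while P10 MI day 7 libraries ran from 39.6 to 100.4 (median 56.1). The difference was 2.41 (SE 0.51, limma adjusted p = 0.00142), the largest of the 33. The P1 MI arm rested on 5 pairs and the P10 MI arm on 84.

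Adam19, which codes for a membrane-bound metalloprotease, held a member at its start (chr11:46054001-46068000). P1 MI day 7 libraries ran from 52.7 to 132 CPM (median 92.8) and P10 MI day 7 libraries from 160 to 247 (median 203), without overlap and with a difference of 1.02 (SE 0.31, limma adjusted p = 0.0376). This call was lost without any 1 of 8 libraries, with an adjusted p of up to 0.183 (P1 MI day 7 IZ replicate 1). Sec14l1, a gene for a phospholipid-binding protein, held an intronic member at 0 to 48.5 CPM in P1 MI day 7 (median 28.0) and 75.8 to 173 in P10 MI day 7 (median 109). Its difference was 1.78 (SE 0.46, limma adjusted p = 0.0120), lost only without P1 MI day 7 RZ replicate 1 (adjusted p = 0.0558) among single libraries. Adam19, Sec14l1 and Slco2b1 were named after their values were seen.

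**Figure D3:**
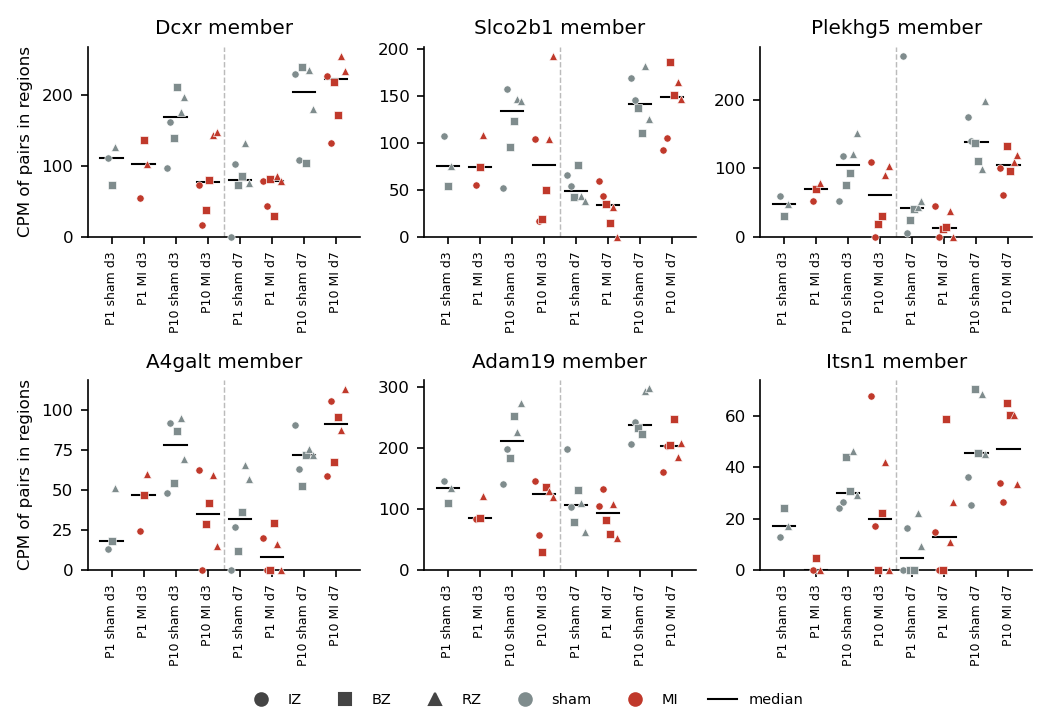
CPM of 6 members in each of the 42 libraries, by arm, with circles for IZ, squares for BZ, triangles for RZ, grey for sham, red for MI and a line at the median. In the Dcxr, Slco2b1, Plekhg5, A4galt and Adam19 panels the P10 MI libraries of day 7 lie above all P1 MI libraries of day 7, while at day 3 the MI arms overlap.

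Among the other members called at day 7, the Rbpj member, at the start of the Notch pathway's DNA-binding factor, stood at 20.8 CPM in P1 MI and 89.8 in P10 MI (pooled over 6 libraries; difference 1.72, SE 0.49). Nuak1, a kinase related to AMPK, held an intronic member at 17.6 and 99.5 CPM (2.23, SE 0.48), and Eef2k, the kinase that slows translational elongation, one at 12.8 and 58.0 CPM (1.83, SE 0.49). Lrp6, a coreceptor of Wnt ligands, held one at 11.2 and 61.5 CPM (1.84, SE 0.55). An intronic member of Tnip2, whose product restrains NF-kB signalling, stood at 16.0 and 53.2 CPM (1.56, SE 0.49), and one in Pepd, nearest Cebpg, at 49.6 and 113 (1.46, SE 0.44). The member before the start of Il1rl1, the IL-33 receptor gene, and in the window of Il18r1, an IL-18 receptor gene, stood at 76.8 and 183 CPM (1.05, SE 0.31). These were named after their values were seen, except those near Cebpg and Il1rl1. The remaining day 7 calls were the members nearest Tut7, Armc2, Runx3, 4930583I09Rik, Snx27, Pmp22, Glcci1, Mon2, Zfhx3, Stxbp3, Serpinf1, Rab21, Tcim, Tbc1d9, Dnajc13, Calr4, Snx24, G3bp2 and Tuba1a.

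Of the 6 members with the largest sham ratios among those with at least 120 sham pairs, 2 were called at day 7. Gas6, the ligand of the efferocytosis receptor Mertk, had a member 9761 bp before its start that stood at a pooled 24.2 CPM in P10 MI and 19.2 in P1 MI at day 7, while the fitted difference, which weights libraries otherwise, had the opposite sign, at -0.38 (SE 0.54, limma adjusted p = 0.799). A member 26240 bp from the start of Tnip2, overlapping Fam193a, stood at 24.9 and 11.2 CPM and the Cfap126 member within Sdhc at 38.7 and 11.2, neither of them called. The Serpinf1 member, in the gene of the secreted factor PEDF, stood at 53.9 and 11.2 CPM (1.79, SE 0.51, limma adjusted p = 0.0244), and the Pmp22 member, in a gene for a tetraspan membrane protein, at 94.7 and 27.2 (1.68, SE 0.47, adjusted p = 0.0223). Leaving out 1 library ended the Serpinf1 call for 5 libraries and the Pmp22 call for 4, with adjusted p up to 0.229 (without P1 MI day 7 RZ replicate 1) and 0.140 (without P1 MI day 7 BZ replicate 2). Within shared flow cells the Serpinf1 difference was 0.55 (adjusted p = 0.592) and that of Pmp22 1.46 (adjusted p = 0.0167).

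Over both days together, 4 of 309 members were higher in P10 MI than in P1 MI and 0 lower, against 0.367% and 0.702% of all regions. The median log2 difference was 0.39 in members and -0.05 over all regions. At an unadjusted p under 0.05, 67 members were higher and 5 lower, against 5.03% and 7.91% of all regions. The 4 were the members at Itsn1, Kdelc2 and 2010111I01Rik, the last of which held a pair of them. The count moved between 0 and 17 when 1 library was left out. It was 0 without P1 MI day 3 IZ, 1 without P1 MI day 3 BZ, P1 MI day 7 BZ or RZ replicate 1, P10 MI day 3 IZ replicate 2 or P10 MI day 3 BZ replicate 3, and 2 without P1 MI day 7 IZ replicate 1, P10 MI day 3 RZ replicate 2 or P10 MI day 7 IZ replicate 2. It was 7 without P1 MI day 7 IZ replicate 2, 9 without P1 MI day 3 RZ and 17 without P10 MI day 3 IZ replicate 3.

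The Itsn1 member, in an intron of a scaffold gene of endocytosis, was the largest of the 4. The 3 P1 MI day 3 libraries had 0, 4.69 and 0 CPM and the 6 P10 MI day 3 libraries 0 to 67.7 (median 19.7). At day 7 the ranges were 0 to 58.9 (median 12.8) and 26.5 to 65.1 (median 47.0), so the arms overlapped on both days. The difference over both days was 2.11 (SE 0.46, limma adjusted p = 0.00727), and it was lost without P1 MI day 3 IZ (adjusted p = 0.0761). P1 MI day 3 rested on 1 pair and P1 sham day 3 on 12.

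The gene 2010111I01Rik, which codes for an aminopeptidase, held both other members in introns. The one nearest the start of Fancc, a DNA repair gene, had 30.1, 46.9 and 55.1 CPM in P1 MI day 3 and 46.0 to 250 in P10 MI day 3 (median 99.4). At day 7 it had 4.95 to 118 in P1 MI (median 30.5) and 46.7 to 97.4 in P10 MI (median 92.0). Its difference over both days was 1.23 (SE 0.32, limma adjusted p = 0.0261). The other had 0, 0 and 18 CPM in P1 MI day 3 and 5.75 to 41.9 in P10 MI day 3 (median 32.9), with a difference over both days of 1.66 (SE 0.46, adjusted p = 0.0470). At day 7 it had 0 to 26.9 in P1 MI (median 13.2) and 0 to 55.4 in P10 MI (median 43.7), a difference of 0.63 (adjusted p = 0.635), against 2.69 at day 3. Leaving out 1 library ended the first call for 9 libraries, the second for 20 and that of Kdelc2 for 8, with adjusted p up to 0.138, 0.271 and 0.179.

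Within P10 MI, 12 of 309 members were higher at day 7 than at day 3 and 0 lower, against 0.832% higher and 1.36% lower of all regions, and the median was 0.35 against -0.01. At an unadjusted p under 0.05 the counts were 65 higher and 1 lower, against 7.08% and 8.35% of all regions. The 12 lay nearest Dcxr, Snx27, Tbc1d1, Slco2b1, Sec14l1, A4galt, Plekhg5, Ephx1, Arhgef3, Fam43a, Adam19 and Asgr2, with differences from 0.88 to 2.03, and 7 of them were also called at day 7 between ages. The Dcxr and Cbr2 member went from a median of 76.7 to 223 CPM (1.47, SE 0.29, limma adjusted p = 0.00115), with an overlap between 143 and 148 in RZ at day 3 and 132 in IZ replicate 2 at day 7. The Snx27 member, which overlaps Tuft1, peaks between genes and lies upstream of a gene for an endosomal sorting protein, went from a median of 29.5 (0 to 99.0) to 101 (59.0 to 131; 1.68, SE 0.40, adjusted p = 0.00990). The Tbc1d1 member, in an intron of a Rab GTPase regulator, went from a median of 33.7 (9.48 to 44.5) to 85.8 (61.8 to 132; 1.5, SE 0.38, adjusted p = 0.0167). The Asgr2 member, in the window of its neighbour Mgl2, went from 27 to 57.3 CPM on pooled pairs (1.54, SE 0.46, adjusted p = 0.0498). The count was 21 without P10 MI day 3 IZ replicate 2 and 2 without P10 MI day 3 IZ replicate 3 or P10 MI day 7 IZ replicate 2. It was 3 without P10 MI day 3 BZ or RZ replicate 2 or P10 MI day 7 RZ replicate 1, and 6 and 7 without P10 MI day 7 BZ replicate 1 and 2. Replicate 2 of both days shared its flow cells, and within that pair, 1 pool against 1, 0 members were called and the median was 0.32. With libraries scaled to all deposited pairs 0 were called too, with a median of 0.30.

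No member passed the test between zones of the infarcted P10 hearts. Between IZ and RZ at day 3, 0 of 309 members were called (limma; 0.0% of all regions higher, 0.00816% lower), with 3 higher and 32 lower at an unadjusted p under 0.05 (3.23% and 3.61% of all regions). The median was -0.48 in members and -0.04 over all regions. It was -1.02 without IZ replicate 2 and 0.05 without IZ replicate 3, so its direction rests on the latter library. At day 7, 0 members were called (0.00816% of all regions higher, 0.0% lower), with 5 higher and 19 lower at an unadjusted p under 0.05 (3.88% and 2.48% of all regions) and a median of -0.31 against 0.06. Mertk, the receptor for engulfing dead cells, had a member over its start that differed by -1.79 between IZ and RZ at day 3 (adjusted p = 0.467), and the Dcxr and Cbr2 member by -1.85 (adjusted p = 0.467). In the age comparison, the member medians were 0.33 in IZ, -0.33 in BZ and 0.12 in RZ at day 3, and 0.48, 0.78 and 0.69 at day 7.

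Against sham of the same age and day the members lay lower in P10 MI, most at day 3. This is a description, since P10 sham chose the members, and carries no test. For members chosen on the sham hearts of the other day the P10 medians were nearer 0, at -0.31 (day 3) and -0.09 (day 7), than those that follow. At P10 day 3 the median log2 difference was -0.53 over the 309 members and -0.04 over all regions, and 274 members (88.7%) lay below 0, against 54.0% of all regions. It was -0.41 in IZ, -0.73 in BZ and -0.42 in RZ. At P10 day 7 the median was -0.18 against 0.00 (64.7% below 0 against 50.3%), and -0.23, -0.07 and -0.08 in IZ, BZ and RZ. In P1 hearts the medians were 0.19 at day 3 and 0.23 at day 7, with 35.9% and 36.2% of members below 0, against 49.3% and 54.5% of all regions. Both turned below 0 for members chosen on the sham hearts of the other day, at -0.06 and -0.19, and the day 7 median also without P1 sham day 7 IZ replicate 2 and over members with a mean of 10 pairs or more, at -0.05 in both. By zone P1 hearts stood at -0.21, 0.26 and 0.47 at day 3 and at -0.26, 0.58 and 0.24 at day 7, so the fitted IZ medians were below 0 at both ages and on both days. The summed level did not follow this in P1 day 7 IZ, where it was 0.705% of pooled pairs in MI and 0.629% in sham. One of the sham libraries there is the shallowest, with 15150 pairs in regions, and P1 day 3 IZ is 1 library against 1.

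**Figure D4:**
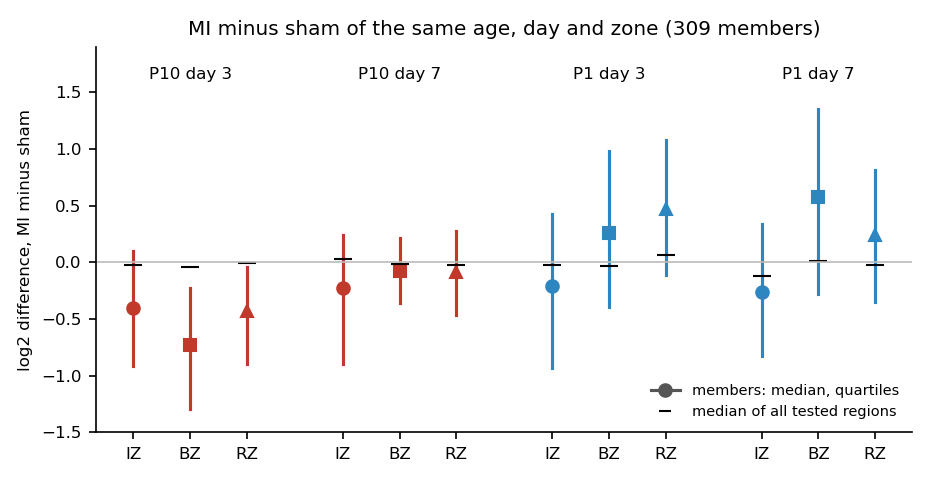
Median (symbol) and quartiles (line) over 309 members of the log2 difference MI minus sham, for each age, day and zone, with a short bar at the median of all tested regions. P10 day 3 lies lowest, at -0.41, -0.73 and -0.42 in IZ, BZ and RZ, and the IZ is below 0 in all 4 panels.

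Among members whose mean count was 10 pairs or more, the Plekhg5 member stood at 56.5 CPM in P10 MI day 3 against 98.4 in P10 sham day 3, the Snx27 member at 38.0 against 80.0, the A4galt member at 40.5 against 73.6 and the Dcxr and Cbr2 member at 85.2 against 159. At day 7 the same members stood at 110 against 137, 101 against 82.0, 85.7 against 69.7 and 220 against 195. The Mertk member stood at 63.3 against 90.8 CPM at day 3 and at 82.9 against 107 at day 7, and the Ina member, within Nt5c2, at 52.3 against 68.5 and 61.5 against 79.4. The Dhrs3 member, within Vps13d, was higher in P10 MI at day 3 (138 against 124) and lower at day 7 (131 against 138). The Tbc1d1 member was lower in P10 MI at day 3 (32.1 against 63.5) and higher at day 7 (101 against 67.0). So was the Cebpg member, at 59.1 against 87.6 and at 113 against 89.0.

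**Figure D5:**
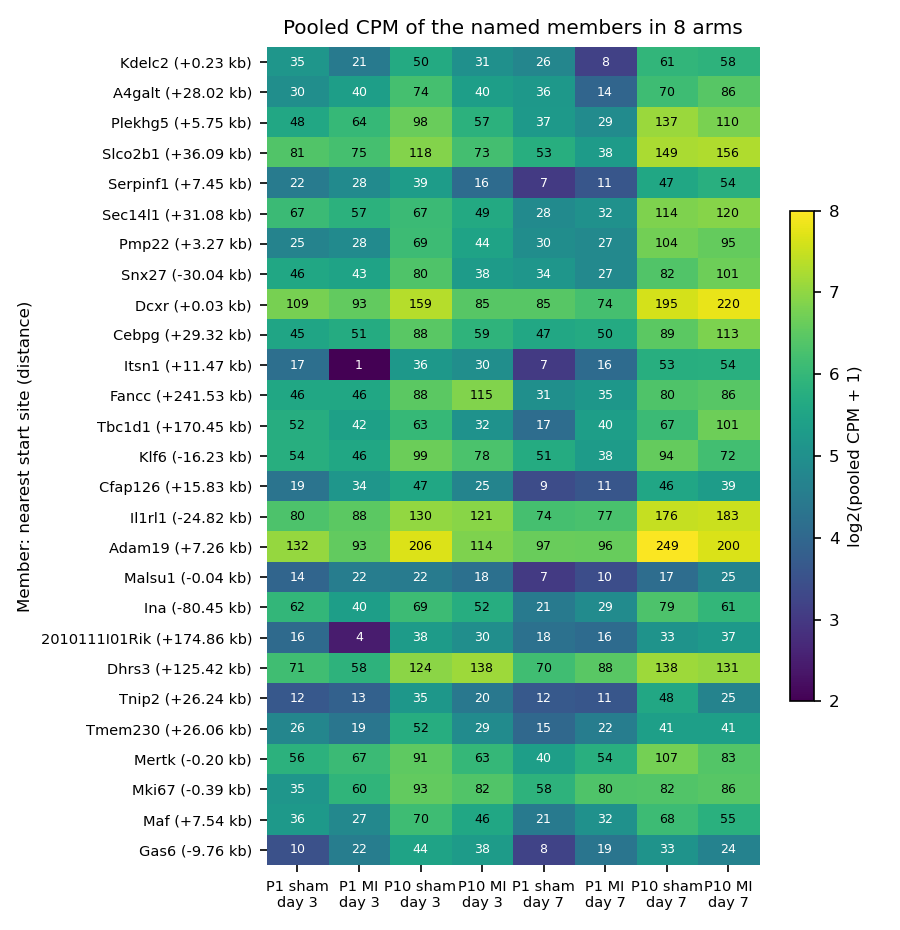
Pooled CPM (printed) of the 27 named members in the 8 arms, coloured by log2(CPM + 1), each row named by the nearest protein-coding start and the distance in kb. The P10 MI day 7 column resembles the P10 sham columns in rows such as Dcxr (220 beside 195) and Slco2b1 (156 beside 149), while P10 MI day 3 is lower there (85.2 and 72.6).

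Of 12 gene lists, resident macrophage genes held the most members. Their 24 genes had 49 regions with enough sham pairs in their windows (50 kb before to 30 kb behind), and 11 of these (22.4%) were members, against 2.88% of all regions. They fell in the windows of Cbr2, Cd163, Cd209g, Clec10a, Gas6, Maf and Mgl2, and the Clec10a window members lay in the Mgl2 window too. The nearest start was that of Evi5l for the Cd209g window member, of Asgr2 for a Mgl2 window member and of Hmga1b for a Cbr2 window member. The windows of Lyve1, C1qa, Fcrls, Mrc1, Stab1, Dab2, Folr2 and Timd4 held no member. The count of 11 was fixed by the rule and by a list chosen with earlier results known. The Maf member, in the gene of the transcription factor c-Maf, had 17.2, 30.1 and 37.5 CPM in P1 MI day 3 and 0 to 104 in P10 MI day 3 (median 47.4). At day 7 it had 11.7 to 65.8 (median 29.3) and 8.42 to 68.2 (median 57.7), which overlap (difference 0.20, SE 0.49, limma adjusted p = 0.895). The Cd163 member at 54595 bp from the start stood at 34.6 CPM in P10 MI day 3 and 51.1 at day 7, against 54.6 and 67.9 in P10 sham. The other Cd163 member, at -24405 bp, stood at 16.0 and 33.2 CPM against 22.2 and 22.9. The Mgl2 member at its start stood at 9.28 and 22.1 CPM against 31.1 and 31.7. It had no pair in P1 MI day 7 and 2.37 CPM in P1 sham day 7, but 11.9 in P1 MI day 3 and 11.6 in P1 sham day 3. Its age difference in MI was not called at day 7 (1.47, SE 0.62, limma adjusted p = 0.179) and was -0.005 at day 3. Of the 11, 10 lay below P10 sham in P10 MI day 3 (88.7% of all tested members), with a median of -1.05, and the median at day 7 was -0.20. Between ages at day 7, 1 of the 11 was called (Dcxr and Cbr2), where 10.7% of tested members and 1.45% of all regions were. Between days 2 were (Dcxr and Cbr2, and Asgr2), where 3.88% of tested members and 0.832% of all regions were.

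Other lists held few or no members. There were 0 of 18 regions with enough pairs for MHCII macrophage genes, 0 of 10 for monocyte, 0 of 26 for Ly6c-low monocyte, 0 of 12 for S100a9 monocyte and granulocyte, 0 of 14 for lymphocyte, 0 of 23 for dendritic cell and 0 of 11 for non-leukocyte genes. Arg1 macrophage genes had 1 of 14 (at Malsu1, in the Gpnmb window), AP-1 and early response genes 1 of 61 (before Klf6), inflammatory genes 1 of 30 (the Il1rl1 and Il18r1 member) and proliferation genes 2 of 19 (at the Mki67 start and in the Pcna window). The Mki67 member, at the start of a gene for a nuclear protein of cycling cells, stood at 86.4 CPM in P10 MI day 7 and 80.0 in P1 MI day 7 (0.43, SE 0.41, limma adjusted p = 0.663). The Klf6 member, before the start of a zinc finger factor gene, stood at 71.9 and 38.4 CPM (1.07, SE 0.44, adjusted p = 0.163). The Malsu1 member stood at 24.9 and 9.60 CPM and the Pcna window member, nearest Tmem230, at 40.8 and 22.4, neither called.

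Outside the members, 2 of the 12 lists had summed levels that did not overlap between P10 MI and P1 MI at day 7, those of resident and of Arg1 macrophage genes. These sums were not tested. The 85 non-member regions of the 24 resident macrophage genes summed to 4220 to 5703 CPM in P10 MI day 7 and 2611 to 3216 in P1 MI day 7. The 24 regions of 7 Arg1 list genes summed to 580 to 724 CPM in P10 MI day 7 and 816 to 1317 in P1 MI day 7. The resident macrophage regions summed to 2318 to 5193 in P10 MI day 3 and 2970 to 4214 in P1 MI day 3, which overlapped. In the P10 sham arms they ran from 3251 to 5680 (day 3) and 4303 to 5394 (day 7). In the P1 sham arms they ran from 3723 to 4338 (day 3) and 2289 to 3458 (day 7), so the day 7 sham arms did not overlap either. The Arg1 list regions summed to 558 to 890 in P10 sham day 7 and 462 to 1001 in P1 sham day 7, which overlapped. The 34 regions of 7 monocyte genes summed to 697 to 1392 CPM in P10 MI day 3, 575 to 997 in P10 MI day 7, 422 to 996 in P10 sham day 3 and 944 to 1791 in P1 MI day 7. The 34 regions of 9 S100a9 list genes summed to 623 to 1674 in P10 MI day 3, 630 to 847 in P10 MI day 7 and 842 to 1141 in P1 MI day 7. The 28 regions of 14 non-leukocyte genes summed to 800 to 1068 in P10 MI day 3, 983 to 1227 in P10 MI day 7 and 711 to 1383 in P1 MI day 7. Col1a2, Col3a1, Pdgfra, Dcn, Tnnt2 and Actc1 had no region in their windows. The part of the cell mixture in the members' differences was not tested.

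Choosing on the sham hearts of 1 day and reading the other keeps the choice and the reading apart. The ratio limit was that of the members, while the minimum of sham pairs was lowered to the chosen day's share of all sham pairs. Regions chosen in this way can rest on fewer sham pairs than the members, and the part of this in the values was not tested. Of 925 regions chosen on day 7 sham alone, 264 were members. The median log2 difference of their pooled CPM, P10 minus P1, was 0.19 in sham day 3, -0.01 in MI day 3 and 0.74 in MI day 7. Of 880 chosen on day 3 sham alone, 208 were members. Their median log2 difference was 0.07 in sham day 7, 0.18 in MI day 7 and 0.16 in MI day 3. The regions chosen on both days numbered 122. For the day 7 choice the infarct hearts of the same day stood above the sham hearts of the other day (0.74 against 0.19), and for the day 3 choice these values were 0.16 and 0.07. MI and sham libraries of one day and number share flow cells, and the part of flow cell in these values was not tested.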

How the data were processed

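The deposited file of each library is a list of aligned reads with a mapping quality score from 21 to 44, which the authors made by trimming with Cutadapt, alignment to mm10 with Bowtie2, removal of low-quality alignments with Samtools and of duplicates with Picard, and selection of cells by read number. The reads carry no cell name. MACS2 2.2.7.1 and deepTools stand in the submitters' processing notes. MI and sham came from sample titles. Of 48 labelled samples, 42 were used and 6 (embryonic and adult heart) were not analysed here.

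Mates were joined by read name and repeated lines dropped, which left 18007584 pairs of 38097100 lines, each counted at its midpoint. Coordinates are GRCm38 and genes GENCODE M21. A region is named by the nearest protein-coding start. Pairs per region were scaled with TMM factors (0.967 to 1.03, from regions with a mean of at least 20 pairs) and fitted with limma 3.58.1 voom (R 4.3.3, 0.5 added, two-sided) with 24 group means and the 14 pools as a random block (correlation 0.053). A pool is the zones of one age, day, surgery and replicate number. These zones were taken to come from the same hearts, which the labels do not state. Each arm at P10 and at P1 day 7 has 2 pools and each at P1 day 3 has 1, and p-values measure the spread between these libraries. Adjusted p under 0.05 was called.

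The members, gene lists and rules were chosen with earlier results of these data known. Named are the members with the largest sham ratio and at least 120 sham pairs, those with the smallest adjusted p over both days or between P10 MI days, those with the lowest and highest P10 MI minus sham with the same sign in all 3 zones, and up to 2 per list. Another ratio, pair minimum, region threshold, scaling, filter, block or fit and leaving out each library were tried. Python 3.11.15 with numpy 2.4.6 and pandas 2.3.3 was used.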

Additional observations from a re-analysis of the deposited data

Results flagged for a closer look

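Arms with 4 to 10 libraries were examined for the summed level of the members and for the CPM of the named members with a call, 102 in all. In 7 of these 1 library stood apart from the others, where chance gives about 5.10. The Kdelc2 member had 132 CPM and the Plekhg5 member 264 CPM in P1 sham day 7 IZ replicate 1, against 33.1 and 52.0 CPM at most in the other 5 libraries of that arm. This is the shallowest library, with 15150 pairs in regions. The Kdelc2 member had 19.8 CPM in P1 MI day 7 IZ replicate 1, where the others had 5.39 at most. The Snx27 member had 99.0 CPM in P10 MI day 3 IZ replicate 2 (others 34.9 at most) and 157 CPM in P10 sham day 7 BZ replicate 2 (others 90.8 at most). The Cebpg member had 256 CPM in P10 MI day 7 IZ replicate 2 (others 121 at most), and the Fancc member had 25.4 CPM in P10 sham day 7 IZ replicate 2 (others 75.9 at least).

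The difference between P10 MI and P1 MI changed between days at 3 members by a limma interaction adjusted over all regions. It changed by 2.88 at Plekhg5 (from -0.84 to 2.05, adjusted p = 0.0270), by 2.31 at Slco2b1 (from -0.33 to 1.98, adjusted p = 0.0329) and by 2.90 at A4galt (from -0.51 to 2.39, adjusted p = 0.0273).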

How the results depend on the processing

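At day 7 the count of members called between P10 MI and P1 MI (33 of 309 tested) was 59 of 609 with ratios of mean library CPM, 6 of 42 with a ratio of at least 2.5, 17 of 53 with at least 200 sham pairs, 17 scaled to all deposited pairs, 10 of 371 with no filter, 18 of 41 with a mean of at least 10 pairs, 5 of 211 with regions at 8 times the mean, 12 within shared flow cells and 10 to 33 without 1 library. Over both days (4) these settings gave 7, 1, 1, 0, 1, 1 and 0, limma-trend 0, no pool block 9 and leaving out 1 library 0 to 17. After seeing the data, TMM over all tested regions (7) and leaving out the 4 shallowest libraries (11) were added. Between P10 MI days (12) the counts were 21 with mean library CPM, 1 with a ratio of at least 2.5, 0 scaled to all deposited pairs, 1 with no filter, 1 with limma-trend, 5 with the replicate block, 1 at 8 times the mean, 0 within shared flow cells (added) and 2 to 21 without 1 library. Between IZ and RZ they were 1 at 8 times the mean and 0 to 2 without 1 library at day 3, and 0 to 1 without 1 library at day 7. No member was lower in P10 MI than in P1 MI at day 7 or over both days in any of these settings. Members numbered 702, 63 and 53 under the first 3 choices. These 3 kept the main fit, in which 1.45% of all regions were higher in P10 MI at day 7. For the other settings the shares of all regions called are not given here. The day 7 ratio of summed levels was 2.78 with a ratio of at least 2.5 and 1.54 at 8 times the mean. It was 1.17 for members chosen on the other day, with the lowered minimum of sham pairs. Promoters made up 17.5% with a ratio of at least 2.5 and 37.7% with at least 200 pairs. The P1 day 7 median against sham was -0.19 for members chosen on day 3 sham and -0.28 without the 18 libraries numbered 2, where no residual degrees of freedom are left. Without 1 library the medians were -0.70 to -0.36 (P10 day 3), -0.20 to -0.11 (P10 day 7), 0.04 to 0.36 (P1 day 3) and -0.05 to 0.35 (P1 day 7), the last below 0 without P1 sham day 7 IZ replicate 2. The causes were not tested.

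Libraries with the same number did not deviate together across groups (correlations of -0.112 to 0.085), so numbers were not taken as pairs, and the fit with the replicate block called 41 members at day 7 and 4 over both days. P1 MI day 7, with 37961 to 201829 pairs in regions per library, limits the day 7 comparison.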
